A study of Bos taurus with 90 samples.

Results

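Transcripts of 4 glutathione-related genes were followed in the liver of beef and dairy steers. They are both Ensembl genes named GSTM1 (ENSBTAG00000017765 and ENSBTAG00000037673, called the first and the second GSTM1 copy here), GSTA4 (ENSBTAG00000004288) and ANPEP (ENSBTAG00000016881), out of 24616 genes counted. They were picked by name from the study's list of genes that differed between low and high residual feed intake (RFI) in Holstein-Friesian steers on the first high-concentrate diet. That one contrast therefore chose them, and its values are given below as a description, with no test. All 4 genes passed the filter on low counts, which left 13945 genes in the fit over all groups. Their counts lay between 617 and 13074 reads per library for the GSTM1 copies and GSTA4. ANPEP was much more sparsely counted, with 15 to 841 reads.

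Glutathione is the most abundant small thiol of the cell, and the liver both makes and spends it. The GSTM1 and GSTA4 genes encode glutathione S-transferases of the mu and alpha classes, which join glutathione to reactive electrophiles so that these can be exported. GSTA4 is known for its activity towards 4-hydroxynonenal, a product of lipid peroxidation. ANPEP encodes aminopeptidase N, a membrane enzyme that removes single residues from the amino end of peptides, among them the cysteinyl-glycine left when glutathione is broken down outside the cell.

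Liver biopsies came from Charolais (CH, a beef breed) and Holstein-Friesian (HF, a dairy breed) steers after each of 3 dietary phases. Under H1 and H2 the steers were on a barley-based high-concentrate diet with a restricted allowance of grass silage, and ZG was fresh grass cut and carried to the animals. Within each breed and phase, libraries came from steers that ate less than predicted from their weight and growth (low RFI, the efficient state) and steers that ate more (high RFI). For low and high RFI respectively, there were 9 and 11 CH steers under H1, 3 and 3 under ZG, and 9 and 8 under H2. The HF libraries came from 7 and 9 steers under H1, 10 and 8 under ZG, and 5 and 8 under H2. The phases followed one another in the order H1, ZG and H2, so that diet cannot be told apart from age or season. Per the study's methods, CH steers were on average the younger breed at the start of H1, so that breed and age are also partly joined.

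Between 9097695 and 63621304 reads were counted per library, with a median of 18858293. Steer numbers in the labels show that 14 steers of one breed gave libraries in several phases. Steer 1797 is labelled CH under H1 and HF under H2, and values without its 2 libraries are given beside the breed and diet differences of the 4 genes that were called with both RFI classes together. The correlations, and the comparison of the ratio of the GSTM1 copies between diets, were not recomputed without them. None of the 38 cell type markers that were listed, hepatocyte markers among them, could be matched to an identifier. The cell makeup of the biopsies was therefore not examined. As a check of the tissue, chosen after the values were seen, 4 liver genes were looked up in normalised counts per 1000000 reads (CPM). FGA and FGG, which encode fibrinogen chains, were at 5530 CPM or more and APOC3, an apolipoprotein gene, at 729 CPM or more in every library. AGXT, an enzyme of glyoxylate metabolism, ranged from 9.69 to 158 CPM with a median of 61.1 CPM. In bulk tissue, fewer cells of a type and less RNA per cell cannot be told apart. Genes of the mu class are related in sequence, and how alike these 2 copies are was not computed here. RefSeq, on assembly ARS-UCD2.0, lists 2 genes with the synonym GSTM1. One, LOC327709, has GSTM3 and GSTM2 among its neighbours, and the other, LOC783879, has AMPD2 and GNAT2. LOC100295687 is among the neighbours of both. Which of them matches which Ensembl copy is not given in the sources used here. How short reads were divided between the copies could not be examined, and some results are also given for the sum of both.

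Over all 90 libraries the first GSTM1 copy had a mean of 264 CPM ± 92.6 (SD, n = 90) and the second 264 CPM ± 106. GSTA4 had a mean of 250 CPM ± 120, and ANPEP one of 5.52 CPM ± 2.71. Between its extremes the first copy ranged from 52.2 to 461 CPM, the second from 50.3 to 502 CPM, GSTA4 from 76.9 to 593 CPM and ANPEP from 1.66 to 18.6 CPM. The lowest value of both GSTM1 copies came from the same animal, low RFI CH steer 950 under H1. That library also held the lowest GSTA4 of its breed at 84.1 CPM, and the highest ANPEP of its breed at 13.3 CPM. The opposite extreme for ANPEP, 18.6 CPM, belonged to low RFI HF steer 5632 under H1.

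**Figure D1:**
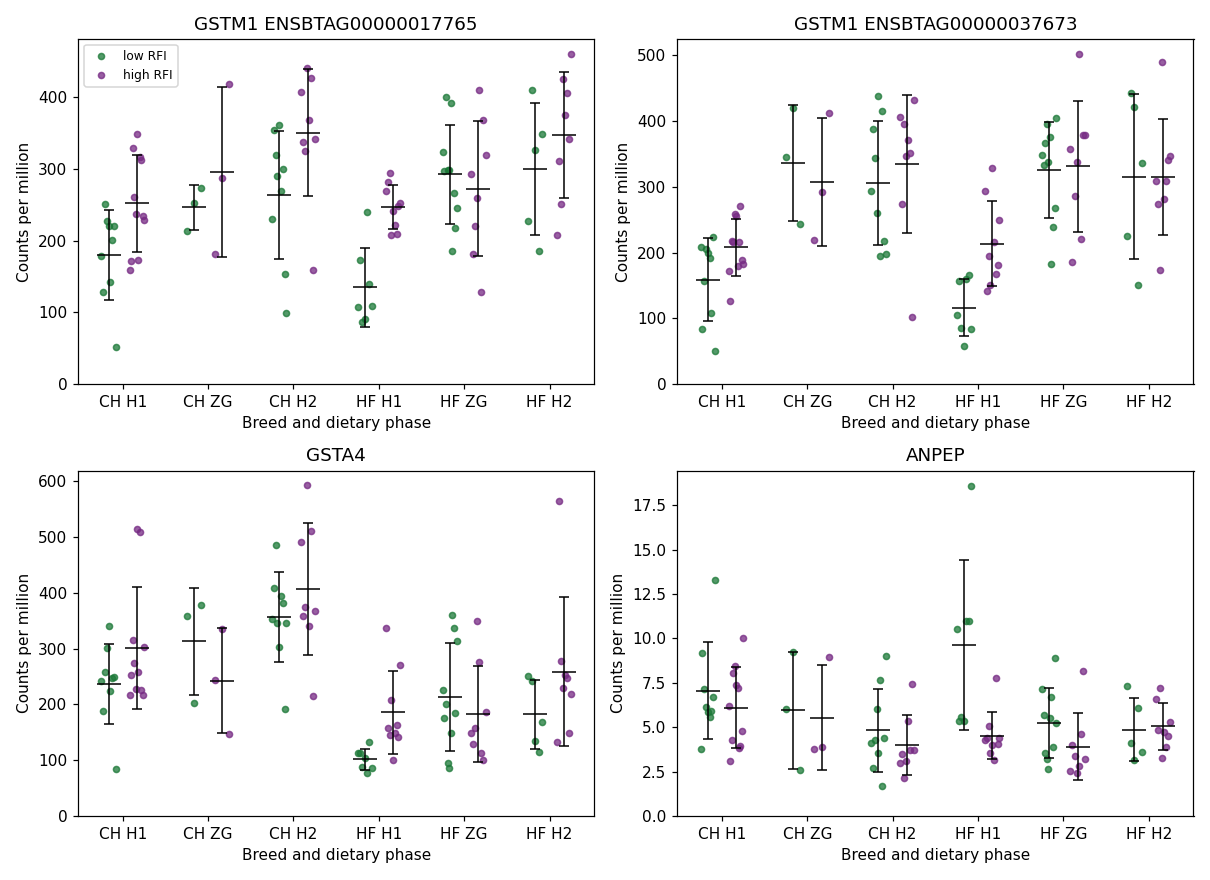
Normalised read counts (CPM, TMM-scaled) of the 4 genes by breed and dietary phase. Each point is a library, green for low RFI and purple for high RFI, and the bars give the mean and SD of the group. The low RFI HF steers under H1 had the lowest GSTA4 mean (101 CPM) and the highest ANPEP mean (9.61 CPM) of the 12 groups.

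Under H1, HF steers of low RFI had roughly 0.55 times the GSTM1 and GSTA4 transcript level of their high RFI counterparts and 2.14 times the ANPEP level. This is the contrast on which the genes were selected. The first GSTM1 copy had a lowest, median and highest value of 86.9, 109 and 240 CPM in the 7 low RFI steers. In the 9 high RFI steers the same values were 208, 248 and 294 CPM. All but 1 of the low RFI steers lay below every high RFI steer, the exception being steer 2220 at 240 CPM.

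The second GSTM1 copy ran from 58.4 over a median of 105 to 166 CPM in low RFI and from 141 over 194 to 329 CPM in high RFI. GSTA4 extended from 76.9 over 103 to 132 CPM in low RFI and from 101 over 158 to 337 CPM in high RFI. ANPEP went from 5.33 over 10.5 to 18.6 CPM in low RFI and from 3.16 over 4.28 to 7.77 CPM in high RFI. For each of these genes every low RFI steer was on one side of the high RFI median, and the groups overlapped in part. The log2 fold changes of low against high RFI were -0.87 (SE 0.18) and -0.88 (SE 0.23) for the first and second GSTM1 copy, -0.88 (SE 0.21) for GSTA4 and 1.10 (SE 0.25) for ANPEP. In this edgeR fit 0% of 13025 genes had an adjusted p under 0.1, with 863 at an unadjusted p under 0.05, whereas DESeq2 called 23 genes.

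The other 5 comparisons of RFI groups did not choose the genes, and none of the 4 genes passed the test in any of them. At an adjusted p under 0.1 in edgeR, the share of all genes called was 0.0155% for CH under H1 (2 genes, with 1518 at an unadjusted p under 0.05 and 159 called by DESeq2) and 0% for CH under ZG, for CH under H2, for HF under ZG and for HF under H2. At an unadjusted p under 0.05, the 4 fits without a call held 1755, 355, 261 and 435 genes, and DESeq2 called 167, 3, 2 and 3 genes in them. DESeq2 called none of the 4 genes in these sets either.

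In CH steers under H1, the first GSTM1 copy had a lowest, median and highest value of 52.2, 201 and 251 CPM in low RFI, against 159, 237 and 349 CPM in high RFI. Of the 9 low RFI steers 8 lay under the high RFI median, and the groups overlapped widely. The log2 fold change was -0.47 (SE 0.22) with an unadjusted p of 0.041, the one value of the 20 in these 5 sets under 0.05, and an edgeR adjusted p of 0.398. Without steer 1797 it was -0.55 (SE 0.22, edgeR adjusted p = 0.424). For the second copy the difference was -0.38 (SE 0.22, edgeR adjusted p = 0.504), for GSTA4 -0.33 (SE 0.21, edgeR adjusted p = 0.549) and for ANPEP 0.22 (SE 0.22, edgeR adjusted p = 0.735). All 4 estimates had the sign seen in HF under H1, but none passed.

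Under H2, the first GSTM1 copy of CH steers had a low RFI median of 290 CPM and a high RFI median of 356 CPM, a log2 difference of -0.41 (SE 0.23, edgeR adjusted p = 0.998). GSTA4 of HF steers under H2 was measured at 115, 134, 169, 242 and 251 CPM in the 5 low RFI steers. The 8 high RFI steers ran from 132 over a median of 238 to 564 CPM. This log2 difference of -0.50 (SE 0.30, edgeR adjusted p = 1) lay within the overlap of the groups.

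For HF under ZG, ANPEP was higher than the high RFI median in 8 of 10 low RFI steers, with a log2 difference of 0.42 (SE 0.26, edgeR adjusted p = 1). GSTA4 pointed the other way from H1, at 0.20 (SE 0.31), and the first and second GSTM1 copies were at 0.08 (SE 0.20) and -0.04 (SE 0.19). In CH under ZG, with 3 steers a group, the first GSTM1 copy gave 213, 252 and 274 CPM in low RFI and 182, 288 and 418 CPM in high RFI. The second copy gave 244, 345 and 419 CPM against 219, 292 and 412 CPM, so that all of these groups overlapped.

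One mean RFI effect was also fitted over the 5 sets outside HF H1. These sets are not wholly separate animals, since 6 HF steers of H1 also gave later libraries. The log2 difference was -0.25 for the first GSTM1 copy (95% interval -0.48 to -0.03, unadjusted p = 0.0315, edgeR adjusted p = 0.597). For the second copy it was -0.08 (-0.32 to 0.16), for GSTA4 -0.09 (-0.35 to 0.17) and for ANPEP 0.19 (-0.09 to 0.47), with edgeR adjusted p-values of 0.814, 0.82 and 0.695. The intervals of single sets were wider. Among them, that of the first copy in CH under H1 ran from -0.90 to -0.05. That of GSTA4 in HF under H2 ran from -1.09 to 0.09, and that of ANPEP in CH under ZG from -0.86 to 1.12. A difference of these sets from HF under H1 was not tested, since the HF H1 estimates chose the genes. Of all genes 0% were called in this fit, 1155 had an unadjusted p under 0.05, and DESeq2 called 3.

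Between breeds, GSTA4 alone of the 4 genes differed, being higher in CH than in HF. Under H1 the lowest, median and highest GSTA4 values were 84.1, 250 and 514 CPM in 20 CH steers and 76.9, 137 and 337 CPM in 16 HF steers. The distributions overlapped, but 19 of the 20 CH steers were above the HF median, steer 950 being the exception. The log2 fold change of CH against HF was 0.96 (SE 0.18, 1.94-fold, edgeR adjusted p = 0.00162), where 2.12% of all genes were called, and 0.95 without steer 1797 (edgeR adjusted p = 0.00229). The H1 value includes the HF steers on which GSTA4 was selected.

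Under H2, GSTA4 had values of 192, 368 and 593 CPM at the lowest, median and highest CH steer and of 115, 229 and 564 CPM in HF. Of 17 CH steers 15 exceeded the HF median, while 5 of 13 HF steers lay below every CH steer. The difference was 0.81 (SE 0.20, 1.75-fold, edgeR adjusted p = 0.0286), with 0.81% of all genes called, and 0.87 without steer 1797 (edgeR adjusted p = 0.0353). This comparison holds none of the libraries that chose the gene, although 4 of its HF steers had a library in H1 as well.

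Under ZG the 6 CH steers gave GSTA4 at 147, 203, 244, 335, 358 and 378 CPM, and the HF steers had a lowest, median and highest value of 86, 180 and 360 CPM. Of the 6 CH steers 5 were above the HF median. The log2 difference of 0.48 (SE 0.24, 1.40-fold) did not pass the test (edgeR adjusted p = 0.783), in a comparison where 0.0645% of genes were called. Whether the breed difference itself varied with diet was tested by an interaction, which called none of the 4 genes. For GSTA4 the breed-by-diet values were -0.48 (SE 0.31) for ZG against H1, 0.33 (SE 0.32) for H2 against ZG and -0.15 (SE 0.26) for H2 against H1, with edgeR adjusted p-values of 1, 0.981 and 1.

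The interaction called 0% of all genes for each of the 3 diet pairs, with 418, 761 and 330 genes at an unadjusted p under 0.05 and with 1, 40 and 0 genes called by DESeq2. Neither GSTM1 copy differed between breeds beyond the spread of the steers, the estimates lying between -0.08 and 0.22 with edgeR adjusted p-values of 0.761 or more. ANPEP gave breed differences of -0.02, 0.34 and -0.17 under H1, ZG and H2, none of which passed.

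Within one RFI class the breed comparison has fewer steers. Under H1 the GSTA4 difference in high RFI steers was 0.69 (SE 0.24), where 0.0359% of all genes were called. In low RFI steers it was 1.23 (SE 0.27), where 0.853% of all genes were called. Both values are a description, since the HF steers in them, low and high RFI, are the sides of the contrast that chose the gene. Under H2 the difference was 0.97 (SE 0.30, edgeR adjusted p = 0.359) in low RFI and 0.65 (SE 0.26, edgeR adjusted p = 0.642) in high RFI, neither of which passed, with 0.0645% and 0.151% of genes called.

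Across diets, H1 had the lowest median of the 3 transferase genes and the highest of ANPEP in both breeds. The second GSTM1 copy showed this most evenly. In HF steers its lowest, median and highest values were 58.4, 163 and 329 CPM under H1, 182, 343 and 502 CPM under ZG, and 151, 308 and 489 CPM under H2. All 18 ZG libraries exceeded the H1 median, and 11 of 16 H1 libraries lay below every ZG library. The HF comparisons with H1, for this and the other genes, include the libraries that chose the genes. Their p-values are not free of that choice, and the values of each RFI class are set apart below.

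Against H1, the second copy rose in HF by a log2 fold change of 1.06 under ZG (SE 0.17, edgeR adjusted p = 5.58e-07) and of 1.00 under H2 (SE 0.18, edgeR adjusted p = 1.08e-05). These are comparisons in which 58% and 61.9% of all genes were called, so that a call as such is common here. The TMM scaling factors of the libraries also differed by phase. In HF they ran from 1.03 to 1.34 under H1, 0.79 to 1.09 under ZG and 0.86 to 1.09 under H2. In CH they ran from 0.91 to 1.24 under H1, 0.95 to 1.09 under ZG and 0.73 to 1.03 under H2. Diet differences without such factors were not computed. In CH the second copy had values of 50.3, 196 and 271 CPM under H1, 219, 318 and 419 CPM under ZG, and 102, 346 and 438 CPM under H2. Its rise in CH was 0.82 under ZG (SE 0.21, edgeR adjusted p = 0.0119), where 17.8% of all genes were called. It was likewise 0.82 under H2 (SE 0.16, edgeR adjusted p = 1.16e-05), where 66.6% were called. Without steer 1797, the second copy gave 0.82 in CH under ZG, 0.81 in CH under H2 and 0.92 in HF under H2, all still called (edgeR adjusted p of 0.0151 or less).

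The first GSTM1 copy had smaller estimates of the rise, and its ratio to the second copy is compared between diets below. In HF steers its lowest, median and highest values were 86.9, 215 and 294 CPM under H1, 128, 295 and 410 CPM under ZG, and 185, 342 and 461 CPM under H2. Of the 18 ZG libraries 9 lay above every H1 library. The log2 rise was 0.63 under ZG (SE 0.16, edgeR adjusted p = 0.000762) and 0.82 under H2 (SE 0.17, edgeR adjusted p = 8.52e-05). In high RFI HF steers alone the ZG value was 0.14 (SE 0.22), against 1.11 (SE 0.23) in low RFI HF steers. In CH the medians were 224, 263 and 325 CPM under H1, ZG and H2. The rise passed under H2, at 0.51 (SE 0.15, edgeR adjusted p = 0.0023), while the value under ZG was 0.34 (SE 0.21, edgeR adjusted p = 0.251). Without steer 1797 the rise under H2 was 0.55 in CH and 0.75 in HF (edgeR adjusted p = 0.00138 and 0.000536). Summed into one count, both copies gave 0.59 for CH under ZG against H1 (SE 0.19, edgeR adjusted p = 0.045).

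GSTA4 had medians of 250, 290 and 368 CPM under H1, ZG and H2 in CH and of 137, 180 and 229 CPM in HF. It rose in CH under H2 by 0.51 (SE 0.17, edgeR adjusted p = 0.00836) and gave 0.04 under ZG (SE 0.24, edgeR adjusted p = 0.915). In HF, with both RFI classes together, it rose by 0.52 under ZG (SE 0.18, edgeR adjusted p = 0.0139) and by 0.66 under H2 (SE 0.20, edgeR adjusted p = 0.0039). In high RFI HF steers alone the ZG value was -0.03 (SE 0.25), against 1.07 in low RFI HF steers. Without steer 1797 the rise under H2 was 0.52 in CH and 0.60 in HF (edgeR adjusted p = 0.00919 and 0.0132). The diets overlapped for GSTA4 in each breed.

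ANPEP moved in the opposite direction. Its medians were 6.15, 4.94 and 3.73 CPM under H1, ZG and H2 in CH and 5.20, 3.96 and 4.73 CPM in HF. In CH it fell under H2 by 0.58 on the log2 scale (SE 0.19, edgeR adjusted p = 0.00645), and 14 of 17 H2 libraries were at or under the H1 median. Without steer 1797 this value was -0.58 (edgeR adjusted p = 0.00825). In HF, with both RFI classes together, it fell under ZG by 0.55 on the log2 scale (SE 0.19, edgeR adjusted p = 0.015). In high RFI HF steers alone that value was -0.21 (SE 0.28), against -0.89 in low RFI HF steers. The fall in HF under H2, by 0.42 on the log2 scale (SE 0.22, edgeR adjusted p = 0.0871), was at the edge of the threshold. Without the libraries of steer 1797 it was -0.39 and no longer passed (edgeR adjusted p = 0.139). The call was also lost when low RFI steer 2071 or 5612 was left out of HF under H2, at -0.36 and -0.38. In high RFI HF steers alone the H2 value was 0.15 (SE 0.28), against -0.997 in low RFI HF steers.

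Between ZG and H2 none of the 4 genes was called in either breed, where edgeR called 2.82% of all genes in CH and 7.24% in HF. The largest of these differences was GSTA4 in CH at 0.47 (SE 0.25, edgeR adjusted p = 0.351), and none of the 4 had an unadjusted p under 0.05 in either breed. DESeq2 called none of them either.

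**Figure D2:**
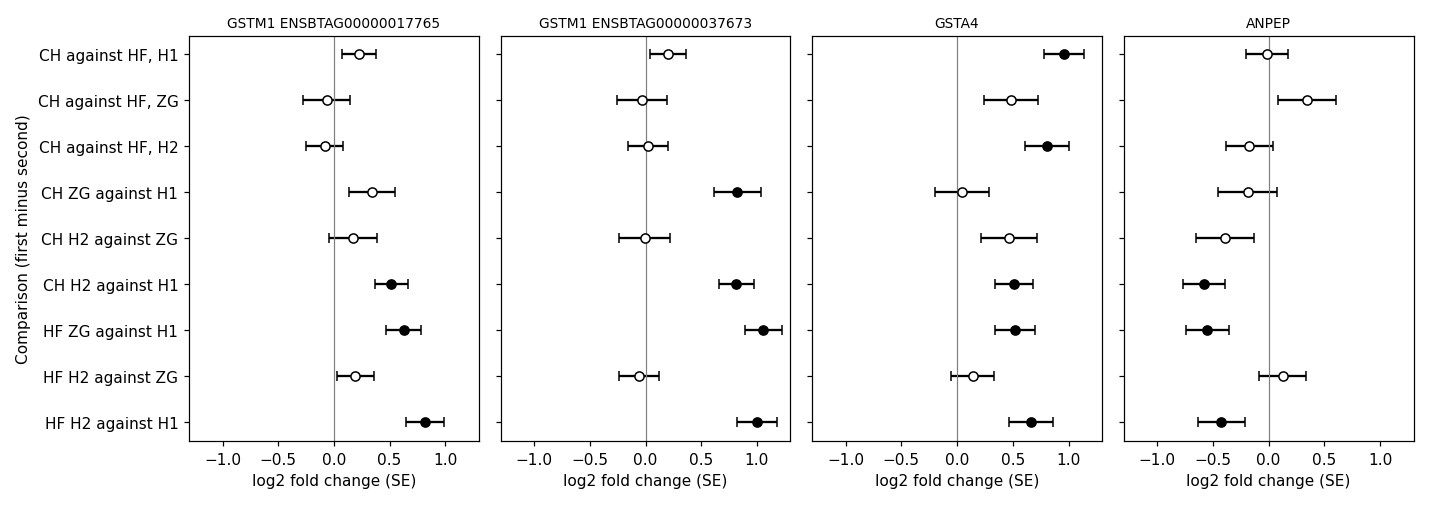
Log2 fold changes of the 4 genes between breeds within a diet and between diets within a breed, each with its SE from edgeR. Filled points had an adjusted p under 0.1. GSTA4 stands to the right of 0 in all 3 breed comparisons, filled under H1 and H2, and the transferase genes and ANPEP lie on opposite sides of 0 in the comparisons of H2 with H1.

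The HF steers of H1 enter every HF diet comparison with H1, and the low RFI steers among them were those with low transferase and high ANPEP values. The diet differences were therefore also taken within one RFI class. In high RFI HF steers the second GSTM1 copy gave 0.63 for ZG against H1 (SE 0.23). The first copy gave 0.14 (SE 0.22), GSTA4 -0.03 (SE 0.25) and ANPEP -0.21 (SE 0.28). In low RFI HF steers the values were 1.11, 1.48, 1.07 and -0.89 for the first copy, the second copy, GSTA4 and ANPEP (SE 0.23 to 0.27). The values of both classes are a description, with no test. The H1 libraries in them, low and high RFI alike, are the sides of the contrast that chose the genes. The share of all genes called was 45.3% in high RFI and 31.2% in low RFI. The difference between the 2 RFI classes was not tested, because the contrast on which the genes were selected is part of it.

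For H2 against H1 in high RFI HF steers, the first and second GSTM1 copies gave 0.49 (SE 0.22) and 0.56 (SE 0.23). GSTA4 gave 0.47 (SE 0.25) and ANPEP 0.15 (SE 0.28). In low RFI HF steers the 4 values were 1.15, 1.44, 0.85 and -0.997. The values of both classes are again a description. Of all genes 42.6% were called in high RFI and 42% in low RFI.

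The CH steers took no part in the selection. For H2 against H1 in CH, low and high RFI steers gave estimates of the same sign, namely 0.55 and 0.48 for the first GSTM1 copy, 0.94 and 0.69 for the second, 0.59 and 0.43 for GSTA4 and -0.55 and -0.61 for ANPEP. All passed except GSTA4 in high RFI (SE 0.24, edgeR adjusted p = 0.155). The shares of all genes called were 56.7% in low RFI and 39% in high RFI. For ZG against H1 in CH, the second copy passed in low RFI at 1.08 (SE 0.30, edgeR adjusted p = 0.0208) and gave 0.57 in high RFI (SE 0.30, edgeR adjusted p = 0.866), with 28.1% and 0.108% of all genes called.

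Animals sampled more than once allowed the phases to be set side by side within a steer, with no test. There were 12 steers with an H1 library and 14 later libraries of the same breed. The first GSTM1 copy was higher in 11 of the 14 later libraries than in the steer's own H1 library, the second copy and GSTA4 were each higher in 13, and ANPEP was lower in 10. The H1 libraries of the HF steers among them took part in choosing the genes, so these counts are not free of that choice. HF steer 5632, whose H1 library held the highest ANPEP value of all, had 109, 218 and 461 CPM of the first copy under H1, ZG and H2. Its second copy went from 83.7 over 267 to 346 CPM, its GSTA4 from 85.1 over 184 to 218 CPM, and its ANPEP from 18.6 over 8.89 to 5.29 CPM. This steer was low RFI under H1 and ZG and high RFI under H2. HF steer 2220 was an exception for both copies. It had 240 CPM of the first copy under H1 and 185 CPM under H2, and 160 and 151 CPM of the second. The first copy was also lower under ZG than under H1 in CH steers 1816 (182 against 227 CPM) and 1831 (213 against 221 CPM).

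Relative to their group means, libraries of one steer tended to keep their side for GSTA4 and ANPEP. Among 18 pairs of libraries from 14 steers, 14 pairs lay on the same side of their group means for GSTA4 and 14 for ANPEP, against 8 for each GSTM1 copy. These counts describe the pairs, some of which share a steer, and were not tested.

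The 2 GSTM1 copies varied together between steers. Within each breed and diet, after the means of the low and high RFI groups had been removed, Pearson's r of their log2 CPM was 0.80 for CH under H1 (n = 20), 0.77 for CH under H2 (n = 17), 0.83 for HF under ZG (n = 18) and 0.76 for HF under H2 (n = 13). The permutation p-values of these 4, adjusted over the 36 relations computed, were 0.0063, 0.0102, 0.00234 and 0.0258. Unlike the edgeR calls, a correlation was taken to pass at an adjusted permutation p under 0.05. Spearman's rho was 0.66, 0.62, 0.78 and 0.78, with adjusted permutation p-values of 0.0246, 0.0693, 0.00882 and 0.032. When the 2 libraries farthest from the median of the first copy were left out, r was 0.59, 0.58, 0.78 and 0.85.

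In HF under H1 r was 0.63 (n = 16, unadjusted permutation p = 0.0201, adjusted p = 0.0604) and rho 0.54 (permutation p = 0.0515). With the RFI difference that chose the genes left in, r of this set was 0.83, given as a description. For the 6 CH steers under ZG, r was 0.63 with an exact permutation p of 0.222, and rho was 0.49 (exact permutation p = 0.583). There it became -0.47 without the 2 outermost libraries, and so rests on them. Over all 90 libraries with the 12 group means removed, r of the copies was 0.76. Only 1 of 13944 other genes followed either copy more closely, and it was the same gene for both, ENSBTAG00000016472, with r of 0.88 and 0.83. This identifier has no name in the list used and was singled out after its values were seen. The part of shared sequence in these correlations was not tested.

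**Figure D3:**
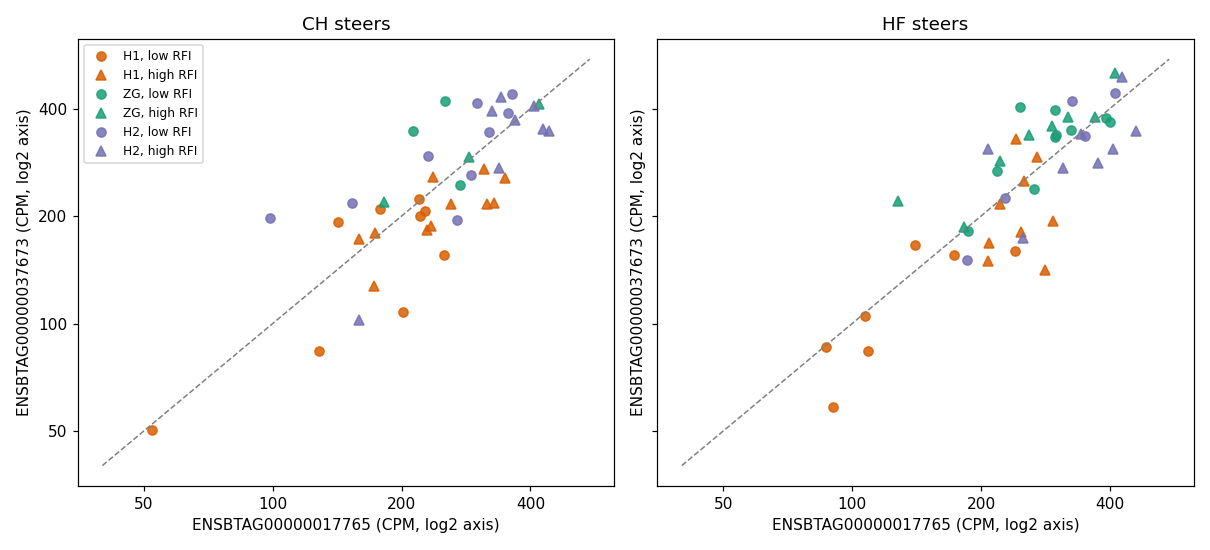
CPM of the second GSTM1 copy (ENSBTAG00000037673, vertical axis) against the first (ENSBTAG00000017765, horizontal axis), both on log2 axes, for CH and HF steers. Each point is a library, coloured by diet, with circles for low and triangles for high RFI, and the dashed line marks equal CPM. Points rise along the line, H1 libraries (orange) more often below it and ZG libraries (green) more often above it.

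The copies did not keep a fixed ratio across diets. The log2 ratio of the counts of the first over the second copy had a mean of 0.24 ± 0.34 (SD, n = 20) in CH and of 0.24 ± 0.38 (n = 16) in HF under H1. Under ZG it was -0.25 ± 0.38 (n = 6) in CH and -0.22 ± 0.26 (n = 18) in HF, and under H2 it was -0.07 ± 0.42 (n = 17) and 0.08 ± 0.33 (n = 13). The breeds did not differ detectably in any diet. The CH minus HF differences were -0.01, -0.04 and -0.16 under H1, ZG and H2, with two-sided permutation p-values of 0.948, 0.797 and 0.276 and adjusted values of 0.948, 0.948 and 0.827 over the 3 tests.

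The comparison of the ratio between diets was added after its values had been seen. Steers with libraries in both phases were counted once. Steer 1797 was kept in, with a ratio of 0.689 in CH under H1 and of -0.109 in HF under H2. In HF the ratio was lower under ZG than under H1 by a mean log2 difference of -0.46 (two-sided permutation p = 0.00052, adjusted over 6 tests p = 0.00312). It was higher under H2 than under ZG by 0.34 (permutation p = 0.00425, adjusted p = 0.0127). In CH the ratio was lower under H2 than under H1, at -0.39 (permutation p = 0.00765, adjusted p = 0.0153). The CH difference of ZG from H1 was of like size, -0.42, but rested on 3 ZG steers without an H1 library (exact permutation p = 0.0768, adjusted p = 0.115). For the remaining pairs the differences were 0.17 for CH H2 against ZG and -0.14 for HF H2 against H1, with an adjusted permutation p of 0.412 for each.

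**Figure D4:**
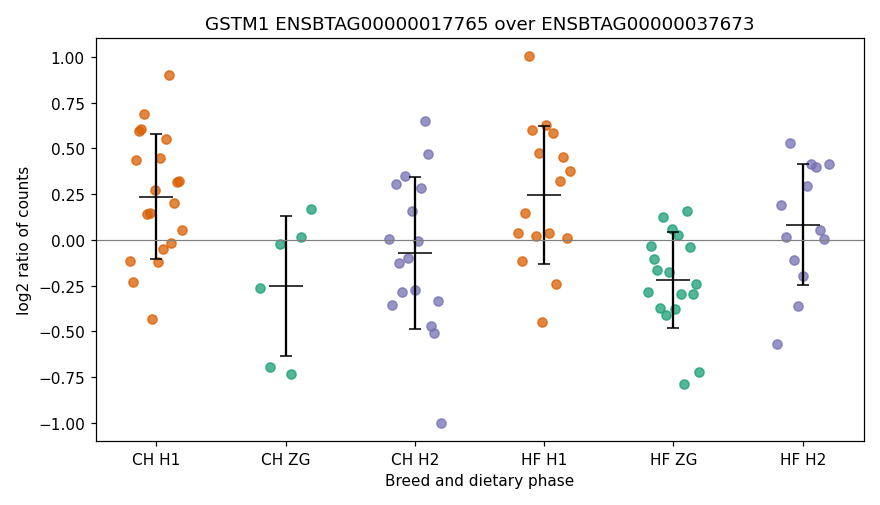
Log2 ratio of the counts of the first GSTM1 copy over the second by breed and diet. Each point is a library, and the bars give the mean and SD. The means are above 0 under H1 (0.24 in CH and 0.24 in HF) and below 0 under ZG (-0.25 and -0.22).

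GSTA4 followed the first GSTM1 copy in CH under the high-concentrate diets. Its r with that copy was 0.83 under H1 (n = 20, adjusted permutation p = 0.00234) and 0.65 under H2 (n = 17, adjusted permutation p = 0.0387), with rho of 0.81 and 0.55. The rho under H2 had an adjusted permutation p of 0.0805. Without the 2 outermost libraries r was 0.62 and 0.76. With the second copy GSTA4 had r of 0.66 under H1 (adjusted permutation p = 0.0258), which became 0.23 without the 2 outermost libraries and so rests on them. Its rho there was 0.49 (adjusted permutation p = 0.0909). Under H2 the r of GSTA4 with the second copy was 0.57 (adjusted permutation p = 0.0887) and rho was 0.16 (adjusted permutation p = 0.802). In HF the r of GSTA4 with either copy lay between -0.07 and 0.24 in the 3 diets, with adjusted permutation p-values of 0.637 or more. Whether these relations differed between breeds was not tested.

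ANPEP ran against the GSTM1 copies under H2. In CH its r with the second copy was -0.75 (n = 17, adjusted permutation p = 0.00348) and rho was -0.74 (adjusted permutation p = 0.022), and with the first copy r was -0.60 (adjusted permutation p = 0.0574). In HF r was -0.77 with the first copy and -0.79 with the second (n = 13, adjusted permutation p = 0.0258 for each), with rho of -0.70 and -0.78. Left without the 2 outermost libraries, these HF values were -0.73 and -0.75, the CH value with the second copy was -0.69 and that with the first was -0.19.

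Under H1 the same relations gave -0.42 and -0.39 in CH and 0.15 and 0.06 in HF, none of which passed. For HF under ZG they gave -0.23 and -0.28 (n = 18, adjusted permutation p = 0.601 and 0.451). In the 6 CH steers under ZG, ANPEP instead rose with the second copy (r = 0.93, exact permutation p = 0.0278, adjusted p = 0.0769), a value that did not pass. Its r with the first copy there was 0.38 (exact permutation p = 0.417, adjusted p = 0.625). GSTA4 and ANPEP passed in no set (adjusted permutation p of 0.224 or more). Their r lay between -0.37 and 0.03 outside CH under ZG, where r was -0.84 and rho -0.71 (exact permutation p = 0.111 and 0.222). With 3 steers in each RFI group the smallest exact p is 0.0278, so that little can be read from that set. Of the 4 genes' r with the total count of a library within these sets, the values lay between -0.60 and 0.49.

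One other gene of a list of 57 glutathione genes could be matched to an identifier by name, through the study's own list of genes that differed by RFI. PRDX6 encodes a peroxiredoxin that reduces peroxides with the help of glutathione. Against H1 it rose by 0.43 (SE 0.11) under ZG and 0.76 (SE 0.08) under H2 in CH and by 0.67 (SE 0.08) and 0.75 (SE 0.09) in HF, with edgeR adjusted p-values from 5.02e-12 to 0.00911. In the same order, 17.8%, 66.6%, 58% and 61.9% of all genes were called. For CH under ZG the second GSTM1 copy was the one transferase gene of the 3 that passed. PRDX6 passed in no comparison of breeds (edgeR adjusted p of 0.798 or more). Its RFI values are a description, since a list of genes that differed by RFI supplied it. The largest in size was -0.39 (SE 0.10) in CH under H1. The other genes of the list were not analysed here.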

How the data were processed

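RNA of 90 liver biopsies was made into stranded TruSeq libraries and read by the authors from one end, over 50 bp. Reads were trimmed with cutadapt, aligned to UMD3.1 with STAR and counted per Ensembl gene, and the authors deposited these raw counts, with no normalization. The STAR version is recorded as 2.5.3a, while the study's methods name an earlier one. STAR counts uniquely aligned reads, which can affect genes with similar copies. Libraries were grouped by the breed, diet and RFI status of their labels into 12 groups. The genes and gene lists were chosen with earlier results of these data known.

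Counts were fitted with edgeR 4.0.16 in R 4.3.3 (TMM, filterByExpr, robust quasi-likelihood test, Benjamini-Hochberg adjustment over all genes fitted, called at an adjusted p under 0.1). RFI was fitted within each breed and diet, as in the study, and breed, diet and their interaction on the 12 group means, RFI classes weighing equally. SE was the absolute log2 fold change over the square root of F, and a 95% interval is normal. CPM used TMM over 90 libraries, and log2 CPM a pseudocount of 0.5. Correlations and ratios were tested by permutation (100000 resamples, or all where fewer), within RFI groups for correlations, with Python 3.11.15, numpy 2.4.6, pandas 2.3.3 and scipy 1.17.1. Named genes are the 4 genes, and the 3 genes most correlated with each over 90 libraries. Those 3 are named only where a name is known, which left 10 of the 12 places unnamed and both GSTM1 copies in the others. The scripts were tested on simulated data. Names came from the study's supplementary list of 328 named identifiers, since RefSeq's table holds no Ensembl identifiers. The authors' own fold changes were not used.

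Alternatives were DESeq2 1.42.0, its size factors, other filters and thresholds, other sets of libraries in the fit, and the steer as a block in limma 3.58.1. The steer numbers in the titles pair libraries of one animal. Deviations of 18 such pairs from their group means had a median r of 0.242 (-0.489 to 0.523), against -0.00778 for different steers. Whether steers were independent beyond this is not stated, and p-values measure the spread between these libraries. Counting error weighs most on ANPEP, with 15 to 841 reads per library.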

Additional observations from a re-analysis of the deposited data

Results flagged for a closer look

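In groups of 4 to 10 libraries, a value was picked out where its gap to the next took up more of the group's range than Dixon's 95% limit. Of the 45 sets of values tested, 6 were picked out, where chance at 1 in 20 gives 2.25. For the first GSTM1 copy, high RFI CH steer 419 under H2 had 159 CPM, the next lowest being 325 CPM and the group median 356 CPM. For GSTA4, high RFI HF steer 1645 under H2 had 564 CPM, with the next at 277 CPM. For ANPEP the highest value stood apart in 3 HF groups, at 18.6 CPM in low RFI steer 5632 under H1 (next 11.0 CPM), 7.77 CPM in high RFI steer 5608 under H1 (next 5.08 CPM) and 8.17 CPM in high RFI steer 5616 under ZG (next 4.63 CPM). The log2 ratio of the first over the second GSTM1 copy was -0.787 in high RFI HF steer 2272 under ZG, the next lowest being -0.378.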

How the results depend on the processing

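Called values of the 4 genes kept their sign under every alternative run, except GSTA4 and ANPEP in HF against H1 within high RFI steers (below). Of 978 alternative values, 907 kept both sign and side of the threshold. The steer as a replicate block changed no call of the 4 genes. The cause was not tested for any change listed. GSTM1 copies are given as the first and second.

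ANPEP in HF H2 against H1 lost its call with no filter (-0.42), without steer 1797 (-0.39) and at an adjusted p under 0.05 (-0.42), and ranged from -0.52 to -0.36 with 1 steer left out. Within high RFI steers, an alternative chosen after seeing the data, calls were lost for GSTA4 by breed under H1 (0.69) and H2 (0.65), for GSTA4 in CH H2 against H1 (0.43) and HF H2 against H1 (0.47), for the second copy in CH ZG against H1 (0.57), and for the first copy (0.14) and ANPEP (-0.21) in HF ZG against H1. GSTA4 in HF ZG against H1 (-0.031) and ANPEP in HF H2 against H1 (0.15) changed sign there. High RFI HF libraries of H1 took part in choosing the genes, so the high RFI values that include them are a description. Within low RFI steers, GSTA4 by breed under H2 (0.97) lost its call. Summed copies passed in CH ZG against H1 (0.59), where the first alone did not.

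Sign changes of values that were not called were as follows. In CH H2 against ZG the second copy was 0.0021 by DESeq2 and by its size factors, 0.0042 with no filter, 0.0017 with the compared libraries alone, 0.12 in high RFI and 0.076 summed. By RFI in HF H2, the second copy was 0.015 with no filter and ANPEP 0.0076 without steer 1797. GSTA4 in CH ZG against H1 was -0.0021 with at least 10 counts in every library and -0.31 in high RFI. The breed-by-diet value of the first copy for H2 against ZG was 0.051 without steer 1797 and 0.013 summed. By breed in low RFI, the second copy was 0.046 under ZG and -0.044 under H2. By breed in high RFI, the second copy (-0.039) and ANPEP (0.43) under H1 and the first copy under ZG (0.12) and H2 (0.015) changed sign. In low RFI, HF H2 against ZG gave -0.22 for GSTA4 and -0.11 for ANPEP. The summed copies, set against the second, were -0.035 by RFI in CH ZG, 0.015 by RFI in HF ZG, -0.030 by breed under H2 and 0.063 in HF H2 against ZG.

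With 1 library of a small group left out, the RFI values in CH ZG ranged from -0.36 to 0.64 for ANPEP, -0.52 to 0.077 for the first copy and -0.073 to 0.40 for the second. Those in HF H2 ranged from -0.25 to 0.076 for ANPEP and -0.16 to 0.17 for the second copy. Breed under ZG ranged from -0.23 to 0.062 for the first and -0.16 to 0.069 for the second copy, and breed under H2 from -0.067 to 0.098 for the second. Breed by diet for H2 against ZG ranged from -0.15 to 0.15 for the first and -0.048 to 0.18 for the second copy. The second copy ranged from -0.11 to 0.13 in CH and from -0.14 to 0.029 in HF for H2 against ZG, and GSTA4 from -0.11 to 0.17 in CH ZG against H1.

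Correlations kept their side of 0.05 but for 4 that passed, leaving aside the copies in HF H1, and 5 changed sign. ANPEP with the first copy in CH H2 passed at a pseudocount of 2 (-0.62), with DESeq2 size factors (-0.62) and with RFI means kept (-0.61). With RFI means kept, ANPEP with the second copy in CH ZG (0.92) passed, and the copies in HF H1 gave 0.83, a description, since it includes the contrast on which they were chosen. With the same means kept in HF H1, likewise a description, the first copy with GSTA4 (0.55) and with ANPEP (-0.50), and the second with ANPEP (-0.46), changed sign, as did HF ZG values of 0.002 for the first copy with GSTA4 and 0.045 for GSTA4 with ANPEP. The breed difference of the copy ratio under ZG was 0.21 in high RFI and ranged from -0.12 to 0.059 with 1 CH steer left out.

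Counts of all genes called moved more. By RFI, DESeq2 called 159 (CH H1), 167 (CH ZG), 3 (CH H2), 23 (HF H1), 2 (HF ZG), 3 (HF H2) and 3 (outside HF H1), and edgeR on 12 groups called 4 (CH H1), 5 (CH H2), 13 (HF H1) and 2 (HF ZG). With at least 10 counts, CH H1 gave 1. Leaving out steer 788 gave 1 in CH ZG, the range being 0 to 1. The breed counts of 295, 9 and 113 under H1, ZG and H2 became 161, 0 and 40 with at least 10 counts, 119, 1 and 9 in low RFI and 5, 0 and 21 in high RFI. With the compared libraries alone H1 gave 669 and ZG 0, at an adjusted p under 0.05 H1 gave 130, and ZG gave 14 by DESeq2, 2 with the block and 0 to 15 with 1 steer left out. CH ZG against H1, at 2476, gave 1616 with no filter, 1535 with at least 10 counts, 3979 with the block, 5274 with the compared libraries alone, 3915 in low and 15 in high RFI, 1124 at 0.05 and 322 (without steer 788) to 2985 with 1 steer left out. CH H2 against ZG, at 393, gave 660 by DESeq2, 260 with no filter, 80 with the compared libraries alone, 9 in low and 23 in high RFI, 130 at 0.05 and 57 (without steer 1831) to 717 (without steer 788). CH H2 against H1, at 9284, gave 5433 in high RFI. HF ZG against H1, at 8089, gave 4355 in low RFI. HF H2 against ZG, at 1010, gave 419 with the compared libraries alone, 30 in low and 476 in high RFI, 509 at 0.05 and 583 (without steer 2220) to 909. Breed by diet gave 1 for ZG against H1 and 40 for H2 against ZG by DESeq2.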
